A study of Homo sapiens with 11 samples.

Results

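Isolated H3K9me3 peaks are the H3K9me3 peaks of U2OS cells that shared no base with a U2OS replication origin, a CUL4A peak, a CDT2 peak or an H3K4me3 peak on chromosomes 1 to 22 of the human genome (build hg19). They numbered 22183 of 56182 H3K9me3 peaks on these chromosomes (39.5%, 95% Wilson interval 39.1 to 39.9%), within a series of 407030 regions in 8 lists. The members were selected on the called positions of these 5 lists, so the absence of origins, CUL4A, CDT2 and H3K4me3 from them is the rule and not a result. The whole H3K9me3 list held 57632 peaks.

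The series followed RepID, a protein that binds a subset of replication origins, and the ubiquitin ligases found on chromatin with and without it. U2OS is a human osteosarcoma cell line and HCT116 a human colon carcinoma cell line; both were grown unsynchronized and untreated. In U2OS cells with intact RepID, origins were mapped by sequencing short nascent DNA strands that resist lambda exonuclease, and CUL4A, H3K4me3 and H3K9me3 were mapped by chromatin immunoprecipitation and sequencing (ChIP-Seq). CDT2 was mapped in U2OS cells that, by the series' design, stably overexpress FLAG-tagged full-length RepID. Its input library carries a U2OS title and an HCT116 cell line label. SKP2 was mapped in HCT116 RepID wild-type (WT) and RepID knock-out (KO) cells, the latter made by CRISPR-Cas9 editing, and origins were also mapped in the HCT116 RepID KO cells. Each list came from 1 sample, and 3 input samples had no list and were not used here. No difference below therefore has a replicate check, no test was run, and the intervals cover counting error only.

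H3K9me3, trimethylation of histone H3 at lysine 9, marks constitutive heterochromatin, silenced repeats and late-replicating DNA, whereas H3K4me3 marks active promoters. CUL4A holds the CRL4 class of ubiquitin ligases together, and CDT2 brings replication proteins such as CDT1 to CRL4 during S phase. SKP2 does the same for SCF, a ligase built on another cullin, and CDT1 is among its substrates too. The isolated peaks are thus the H3K9me3 peaks at which no origin, CUL4A, CDT2 or H3K4me3 was called in U2OS cells. RepID and the other parts of CRL4 have no list here, so their absence cannot be stated.

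Among all autosomal H3K9me3 peaks, 26609 (47.4%, 46.9 to 47.8%) were excluded for sharing bases with a U2OS origin, and for 9717 of these the origin was the sole reason. CUL4A excluded 20112 peaks (35.8%) and was the sole reason for 3371. CDT2 excluded 11697 (20.8%) and H3K4me3 excluded 3320 (5.91%), alone for 1569 and 327. Many peaks were excluded by several lists at once, 1154 of them by all 4. The isolated peaks were compared with 3 classes that do not overlap one another: peaks with an origin alone (9717), peaks with CUL4A or CDT2 and no H3K4me3 (20962), and peaks with H3K4me3 (3320).

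The isolated peaks were narrower than the other H3K9me3 peaks. Their median width was 283 bp (quartiles 220 and 479 bp), against 316 bp for peaks with an origin alone, 367.5 bp with CUL4A or CDT2 and 363 bp with H3K4me3. The smallest width in the list, 200 bp, was held by 3207 isolated peaks (14.5%, 14 to 14.9%) and by 9.06%, 5.48% and 5.66% of the other classes in that order. At least 1000 bp was reached by 1043 isolated peaks (4.7%, 4.43 to 4.99%), against 6.6%, 11.6% and 11% of the others. In total the isolated peaks covered 8960531 bp, or 34.4% of the 26025411 bp under autosomal H3K9me3 peaks.

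A wide peak has more bases on which it can meet another list, so the rule itself favours narrow peaks. The share that was isolated fell from 59.1% (57.8 to 60.4%) at a width of 200 bp to 44.5% above that and up to 300 bp. It was 34% above 300 and up to 500 bp, 34.9% from there up to 1000 bp, and 24% from there up to 2000 bp. Over 2000 bp, 34 of 264 peaks were isolated (12.9%, 9.36 to 17.5%).

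The fold enrichment over control, as given by the peak caller, had a median of 4.01 in isolated peaks (quartiles 3.59 and 4.57). The medians were 3.85 with an origin alone, 4.13 with CUL4A or CDT2 and 4.26 with H3K4me3, and 4.03 over all autosomal H3K9me3 peaks. The classes differed more at both ends of the scale than in the middle. When all autosomal H3K9me3 peaks were ranked by fold and cut into 10 equal parts, 42.9% to 46.9% were isolated in the second to eighth parts. The share was 20.5% (19.5 to 21.6%) in the lowest part, with folds of 1.29 to 3.18, and 23.9% (22.8 to 25%) in the highest, with folds of 5.57 to 61.7. By fold, isolated peaks were therefore drawn more often from the middle of the range, with fewer of very low or very high fold.

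**Figure D1:**
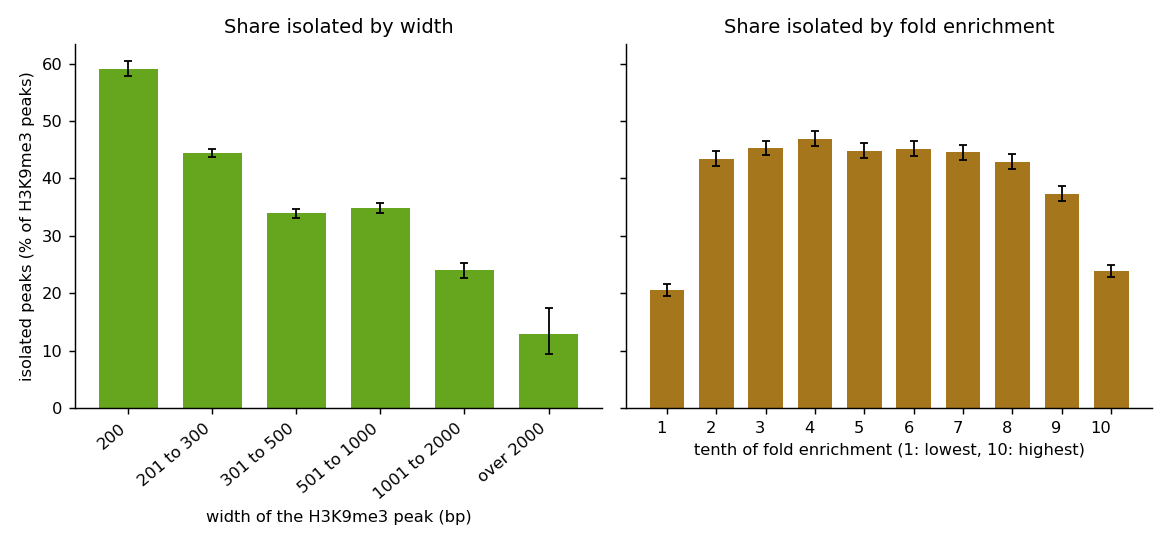
The percentage of H3K9me3 peaks on chromosomes 1 to 22 that were isolated, by peak width in bp (left) and by rank of fold enrichment in 10 equal parts (right); bars start at 0 and error bars are 95% Wilson intervals. The share falls from 59.1% at 200 bp to 12.9% over 2000 bp, and is 20.5% and 23.9% in the lowest and highest parts by fold against 42.9% to 46.9% in the second to eighth.

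The isolated peaks also had the weakest calls of the 4 classes. The median −log10 q was 2.22 in isolated peaks, 2.39 with an origin alone, 3.01 with CUL4A or CDT2 and 3.27 with H3K4me3. A −log10 q of at least 2 was held by 58.2% (57.5 to 58.8%) of isolated peaks and by 63.4%, 75.6% and 78.4% of the other classes. The false discovery rate that the study's methods state for histone marks, with another caller named, equals a −log10 q of 2. The deposited list is more permissive, as isolated peaks reached down to a −log10 q of 1.01. At a −log10 q of at least 10 only 82 isolated peaks were left (0.37%, 0.298 to 0.459%), against 0.772%, 4.95% and 10.9%. Strongly called H3K9me3 peaks were thus rarest where no origin, CUL4A, CDT2 or H3K4me3 was called.

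Within 10 kb of a U2OS origin lay 51.8% of isolated peaks, and within 100 kb 94.7%, while 1172 lay farther away. Distances from arbitrary positions were not computed, so these values do not show whether isolated peaks lie closer to origins than other DNA. The median distance from an isolated peak to the nearest U2OS origin was 9419 bp, to CUL4A 30943 bp, to CDT2 51886 bp and to H3K4me3 68505 bp. The nearest region of the 4 lists was an origin for 65.8% of isolated peaks (65.1 to 66.4%), a CUL4A peak for 16.7%, an H3K4me3 peak for 9.71% and a CDT2 peak for 7.77%. The order of the median distances was that of the length of the lists, with 127325 origins, 56715 CUL4A peaks, 28516 CDT2 peaks and 25181 H3K4me3 peaks. The distance to the nearest region of any of the 4 lists had a median of 6946 bp (quartiles 2896 and 16362 bp). It was up to 1 kb for 1485 isolated peaks (6.69%), up to 10 kb for 61.4%, and over 100 kb for 481.

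**Figure D2:**
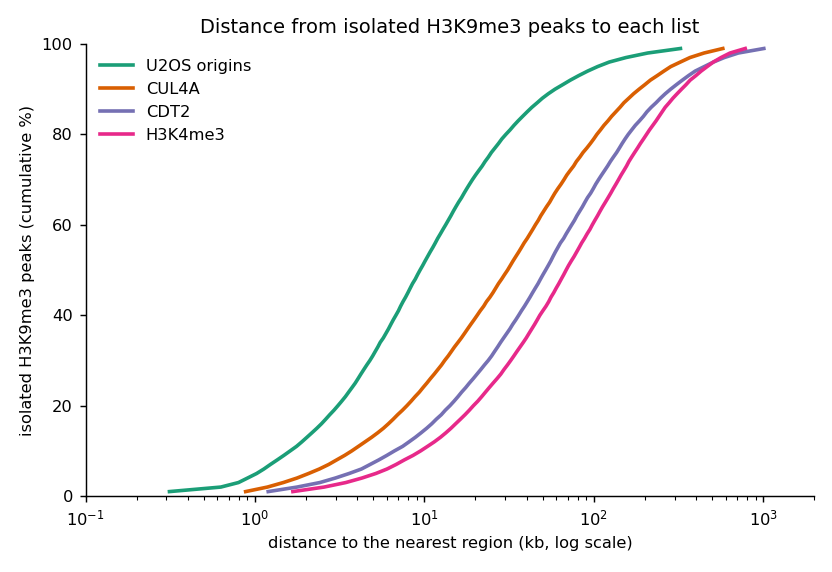
Cumulative percentage of isolated H3K9me3 peaks (y axis) lying within a given distance (x axis, kb, log scale) of the nearest U2OS origin, CUL4A, CDT2 or H3K4me3 region, drawn from percentiles. The origin curve lies farthest left, with a median of 9419 bp, and the H3K4me3 curve farthest right for most of its length, with a median of 68505 bp.

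At the border of the rule, 91 isolated peaks (0.41%) lay within 100 bp of a region that would have excluded them, 1 of them touching it. On the other side, 193 peaks that were not isolated (0.568%) had at most 100 bp inside any region of the 4 lists. The median fold was 3.87 just inside and 3.87 just outside. A further look at partial overlap gave 907 excluded peaks (2.67%) with under 50% of their length in the region that covered them most.

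The median enrichment of isolated peaks was slightly higher in each bin farther from the 4 lists. The median fold was 3.96 up to 1 kb from the 4 lists, 3.99 from 1 to 10 kb, 4.05 from 10 to 50 kb, 4.10 from 50 to 100 kb and 4.15 over 100 kb. The most remote isolated peaks were a pair on chromosome 13, named after their values were seen. The peak at chr13:83486373-83486612 lay 966988 bp from any region of the 4 lists and had a fold of 3.81. The peak at chr13:83774041-83774274 lay 679326 bp away with a fold of 4.91. Their folds were within the range of ordinary isolated peaks.

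The number of isolated peaks per Mb varied less between chromosomes than the number of other H3K9me3 peaks. Chromosome length was taken as the largest end of any region in the 8 lists, so stretches without assembled sequence were counted in it. Isolated peaks ranged from 4.04 per Mb on chromosome 22 to 9.05 per Mb on chromosome 8, with a median of 7.60. The other H3K9me3 peaks ranged from 3.44 per Mb on chromosome 13 to 22.2 per Mb on chromosome 19. The isolated share of all H3K9me3 peaks accordingly ran from 17.4% (15.4 to 19.7%) on chromosome 22, 18.6% on chromosome 19 and 22.9% on chromosome 17 to 57.3% on chromosome 4 and 64.5% (61.6 to 67.2%) on chromosome 13. Chromosomes 17, 19 and 22 had 31.3%, 25.6% and 27.0% of their length under U2OS origins, and chromosomes 4 and 13 had 6.03% and 2.71%. The median distance from an isolated peak to an origin was longest on chromosome 13 (33.6 kb) and shortest on chromosome 22 (4.96 kb).

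Across the 22 chromosomes, the part of a chromosome under origins correlated with the isolated share (Pearson r −0.941, Spearman rho −0.922) and with the other H3K9me3 peaks per Mb (r 0.969, rho 0.974), and less with the isolated peaks per Mb (r −0.393, rho −0.178). These are descriptions over chromosomes that come from the same libraries and differ in base composition and gene density. Because the rule moves peaks at origins to the other peaks, a lower isolated share where origins cover more DNA is partly built in. So is a larger number of other peaks there, as 26609 of the 33999 other peaks met a U2OS origin.

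**Figure D3:**
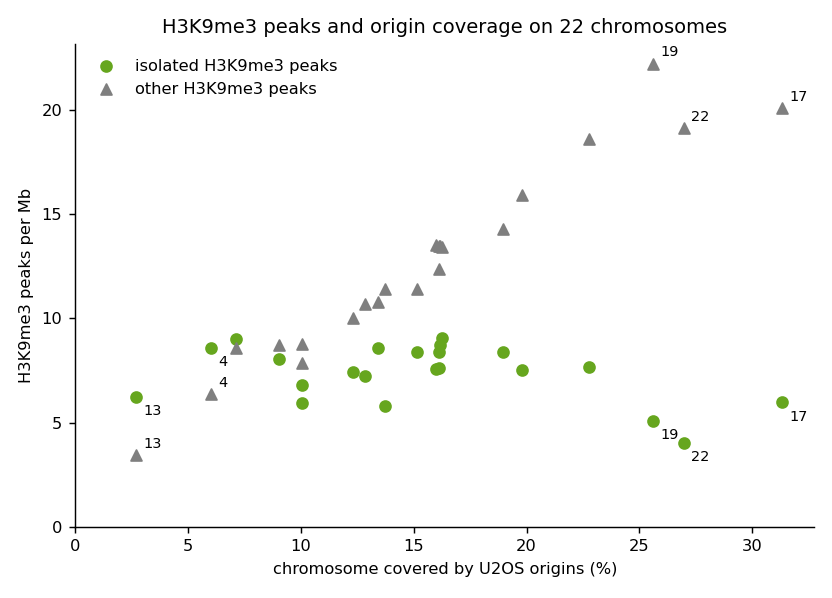
H3K9me3 peaks per Mb (y axis) against the percentage of each chromosome covered by U2OS origins (x axis) for 22 chromosomes, with isolated peaks as circles and all other H3K9me3 peaks as triangles; chromosomes 4, 13, 17, 19 and 22 are labelled. Circles stay between 4.04 and 9.05 per Mb, while triangles climb from 3.44 to 22.2 per Mb.

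Windows of 1 Mb gave the same picture at finer scale. The 2712 windows held a median of 8 isolated peaks (quartiles 5 and 11), and 23 windows held none. Windows were ranked by origin coverage and cut into 5 equal parts. From the least to the most covered part, the mean number of isolated peaks per window was 7.19, 9.39, 9.65, 8.92 and 5.65, and the mean number of other H3K9me3 peaks was 2.38, 6.19, 10.3, 16.6 and 27.0. The isolated share fell from 75.1% to 60.3%, 48.5%, 35% and 17.3%. Isolated peaks were most frequent at intermediate coverage, while the other H3K9me3 peaks increased through all 5 parts. Because the rule assigns peaks at origins to the other peaks, both patterns are partly built in. The mean number of all H3K9me3 peaks, which the rule does not split, rose from 9.58 to 15.6, 19.9, 25.5 and 32.6.

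The window with most isolated peaks was chr14:79000001-80000000, in which 31 of 49 H3K9me3 peaks were isolated. It was not poor in origins: 66 origins lay in it and covered 20.7% of it. The window chr1:237000001-238000000 followed with 25 of 35 peaks isolated and 2.6% under origins, then chr10:83000001-84000000 with 24 of 31 and 7.7%. The 3 windows richest in isolated peaks therefore ranged from poor to rich in origins.

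H3K9me3 peaks of all classes were spaced widely, and the isolated ones the most widely. From an isolated peak, the nearest H3K9me3 peak of any class lay at a median of 17424 bp (quartiles 6998.5 and 37878 bp), and the nearest other isolated peak at 36.4 kb. The median to any H3K9me3 peak was 13077 bp from peaks with an origin alone, 10549 bp with CUL4A or CDT2, 12240.5 bp with H3K4me3 and 13469 bp over all. Of the isolated peaks, 294 (1.33%) had another H3K9me3 peak within 1 kb. No 2 autosomal peaks of this list lay closer than 801 bp.

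Read in order along the chromosomes, the isolated peaks formed 10364 runs that no other H3K9me3 peak interrupts. Single peaks made up 5610 of these runs, or 25.3% of all isolated peaks. Runs of 5 or more numbered 935 and held 6834 peaks (30.8%). The longest run had 49 peaks over 7400 kb at chr14:24958298-32358315, with a median fold of 4.02 and 53 U2OS origins in the gaps. A run of 46 peaks spanned 7514 kb at chr13:68565053-76078677, with 25 origins in its gaps. The next, at chr16:60549804-63601782, had 25 peaks over 3052 kb and 23 origins. Median folds in all 3 runs lay between 3.996 and 4.04, close to the 4.01 of all isolated peaks. The runs were picked for their number of peaks, so their length is no finding.

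The HCT116 lists were not used by the rule. They show whether the isolated peaks were met by SKP2 or by origins in another cell line. These lists are not independent of the rule, as the study reports SKP2 sites colocalizing with CDT2 sites, at which the rule removes peaks. Peaks at positions that the lists of both cell lines share are likewise removed, so part of a lower share may be built in. Isolated peaks met all 3 lists less often than the other H3K9me3 peaks did. Of the 22183 isolated peaks, 265 shared at least 1 base with a SKP2 peak of HCT116 WT cells (1.19%, 1.06 to 1.35%), where 4.3% of all autosomal H3K9me3 peaks did. For SKP2 in RepID KO cells the count was 371 (1.67%, 1.51 to 1.85%) against 4.55% of all. For origins in RepID KO cells it was 1404 (6.33%, 6.02 to 6.66%) against 28.3% of all.

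The 4 classes kept 1 order in all 3 lists. SKP2 of WT cells met 2.39% of the peaks with an origin alone (2.1 to 2.71%), 7.35% with CUL4A or CDT2 and 11.4% with H3K4me3. SKP2 of RepID KO cells met 3.48% (3.13 to 3.86%), 7.36% and 9.16% in that order, and KO origins met 20.4% (19.6 to 21.2%), 49.4% and 65.6%. The isolated class was lowest in each list. It was also lowest at each width up to 2000 bp. Among the 34 isolated peaks over 2000 bp, 2 met SKP2 in each list (5.88%, 1.63 to 19.1%), against 5.26% of peaks with an origin alone. With 1 kb around each peak's centre in place of the peak, the isolated shares were 1.27%, 1.75% and 7%, and again the lowest of the 4 classes.

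**Figure D4:**
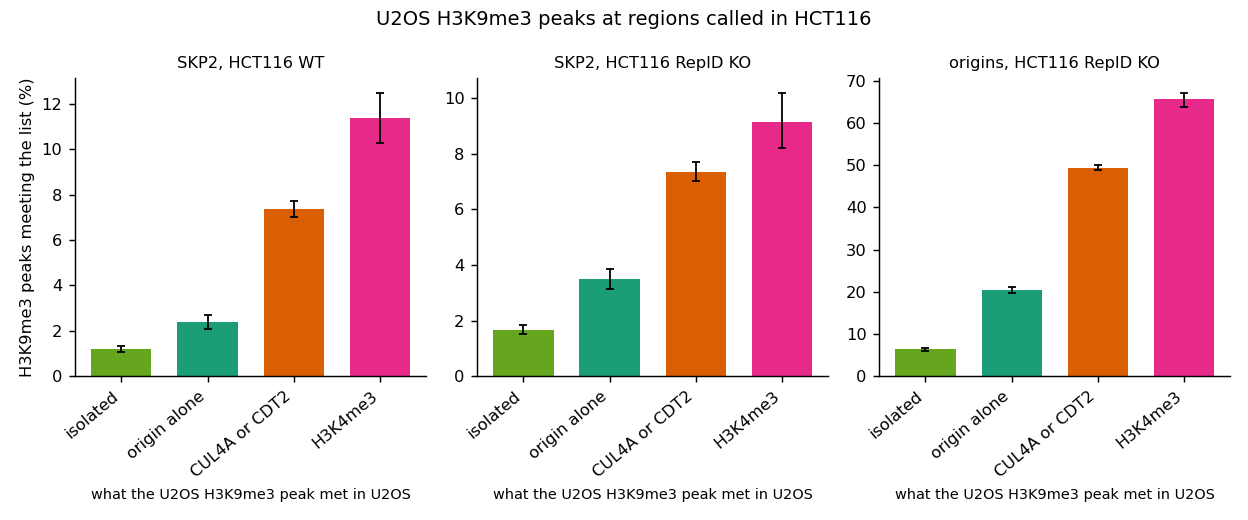
Percentage of U2OS H3K9me3 peaks (y axes, which differ in scale and start at 0) that shared a base with a SKP2 peak of HCT116 WT cells, a SKP2 peak of HCT116 RepID KO cells or an origin of HCT116 RepID KO cells, for the 4 classes of peak; error bars are 95% Wilson intervals. Isolated peaks are lowest in each panel, at 1.19%, 1.67% and 6.33%.

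The share of isolated peaks at SKP2 was higher with the RepID KO list than with the WT list, 1.67% against 1.19%. Both shares are over the same isolated peaks, and their intervals cover counting error only, so they do not compare the genotypes. Peaks with an origin alone also had a higher share with the KO list, 3.48% against 2.39%. With CUL4A or CDT2 the shares were near equal, 7.36% and 7.35%, and with H3K4me3 the KO share was lower, 9.16% against 11.4%. The KO list was also the longer, with 13518 autosomal SKP2 peaks against 11929. Read from the SKP2 side, 2.22% of WT peaks (1.97 to 2.5%) and 2.74% of KO peaks (2.48 to 3.03%) met an isolated peak. With 1 library per genotype, the difference between libraries and the loss of RepID cannot be told apart. The SKP2 peaks concerned were of low score: the median score, the caller's own measure, was 308 at isolated peaks against 380 over the WT list, and 294 against 359.5 over the KO list. SKP2 peaks at H3K9me3 peaks with CUL4A or CDT2 scored higher, with medians of 691.5 and 588.

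The WT and KO lists met largely separate H3K9me3 peaks, isolated or not. In both, SKP2 met 29 isolated peaks, which are 10.9% of those met in WT and 7.82% of those met in KO cells. Over all autosomal H3K9me3 peaks, 537 were met in both, or 22.2% and 21% in that order. The 29 compare with 236 isolated peaks met in WT alone and 342 in RepID KO alone, and together these are 607 (2.74%). At KO origins lay 16 of the 29 (55.2%, 37.5 to 71.6%), 13.6% of those in WT alone, 9.36% of those in KO alone and 6.14% of the 21576 met by neither. The median fold of H3K9me3 in the 29 was 2.34, below the 3.83, 4.003 and 4.02 of the other groups. Among isolated peaks, the shared sites thus had a lower H3K9me3 fold and lay at KO origins more often. Their share at KO origins was not unusual among H3K9me3 peaks at SKP2. Over all autosomal H3K9me3 peaks, 1361 of the 2556 met by SKP2 in KO cells also met a KO origin. Of the 29, 17 had a fold under 2.5, a small group described at the end.

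Within these 29, the highest H3K9me3 fold was 5.77, at chr4:187619841-187620127, where the SKP2 peaks scored 380 in WT and 381 in KO cells. The next was chr1:81983876-81984179 with a fold of 4.77 and SKP2 scores of 413 and 396. At chr22:34845272-34846144, an 873-bp peak, the fold was 4.43 and the scores were 570 and 399. The peak at chr5:13196864-13197115 had a fold of 4.16 and scores of 235 and 266. None of the 4 lay in a KO origin, and their distances to a U2OS origin ran from 1221 to 12456 bp.

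Origins of RepID KO cells were met more often by isolated peaks that lay near the U2OS lists. The share fell from 14.1% (12.4 to 15.9%) up to 1 kb from them to 7.32% at 1 to 10 kb and 3.8% at 10 to 50 kb. It was 2.42% at 50 to 100 kb and 2.49% over 100 kb, where the intervals overlapped. Isolated peaks in a KO origin lay a median of 5.27 kb from a U2OS origin and 9.84 kb from a CUL4A peak, against 9.76 and 33.0 kb for the others. SKP2 showed no such gradient: from near to far, its share was 1.28%, 1.19%, 1.18%, 0.946% and 1.66% in WT cells and 1.82%, 1.75%, 1.49%, 1.68% and 1.87% in KO cells. All 5 intervals overlapped in both lists.

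A small number of isolated peaks had much higher called enrichment. A fold of at least 10 was held by 19 (0.0857%), against 0.0412% of peaks with an origin alone and 0.459% of all autosomal H3K9me3 peaks. Of the 19, 10 lay within 60.2 kb at chr1:212216246-212276402, together with 1 further H3K9me3 peak that overlapped a U2OS origin. The higher share than in peaks with an origin alone, where 4 had such a fold, therefore rests largely on this 1 cluster. The cluster was recognized after the values were seen. Whether its narrow peaks coincide with the exons of a gene, as cDNA or plasmid DNA carried into the library would give, was not tested, since no annotation of this build was used. Their folds are therefore given as called and cannot be read with certainty as H3K9me3 on chromatin. It held 8 of the 10 isolated peaks with the highest −log10 q, and 10 of the 15 with a −log10 q of at least 20. No other interval of 100 kb on a fixed grid held more than 2 such strong isolated peaks.

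The isolated peak with the highest called values, chr1:212253804-212254240, lay in this cluster with a fold of 57.1 and a −log10 q of 184. It was followed by chr1:212238109-212238513 (fold 55.6, −log10 q 170), chr1:212245296-212245694 (39.3 and 108) and chr1:212236065-212236446 (30.2 and 74.0). The sixth by −log10 q was chr1:212241439-212242180 (22.2 and 52.3). The 10 isolated peaks of the cluster had folds of 12.4 to 57.1 with a median of 21.9, and widths of 327 to 3016 bp with a median of 390.5 bp. The 11 peaks were called separately, with gaps of 1080 to 19200 bp between them.

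The other lists had few regions inside the cluster. Between its ends lay 2 U2OS origins and no region of the CUL4A, CDT2, H3K4me3, SKP2 or KO origin lists. The H3K9me3 peak at an origin, chr1:212273441-212274554, had the highest called values of the 11, with a fold of 61.7 and a −log10 q of 398. An H3K4me3 peak at chr1:212204869-212212418 ended 3827 bp before the first peak, and a U2OS origin and a KO origin overlapped it. Beyond the last peak, 2 further U2OS origins began 69.8 and 76.0 kb from the start of the cluster.

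**Figure D5:**
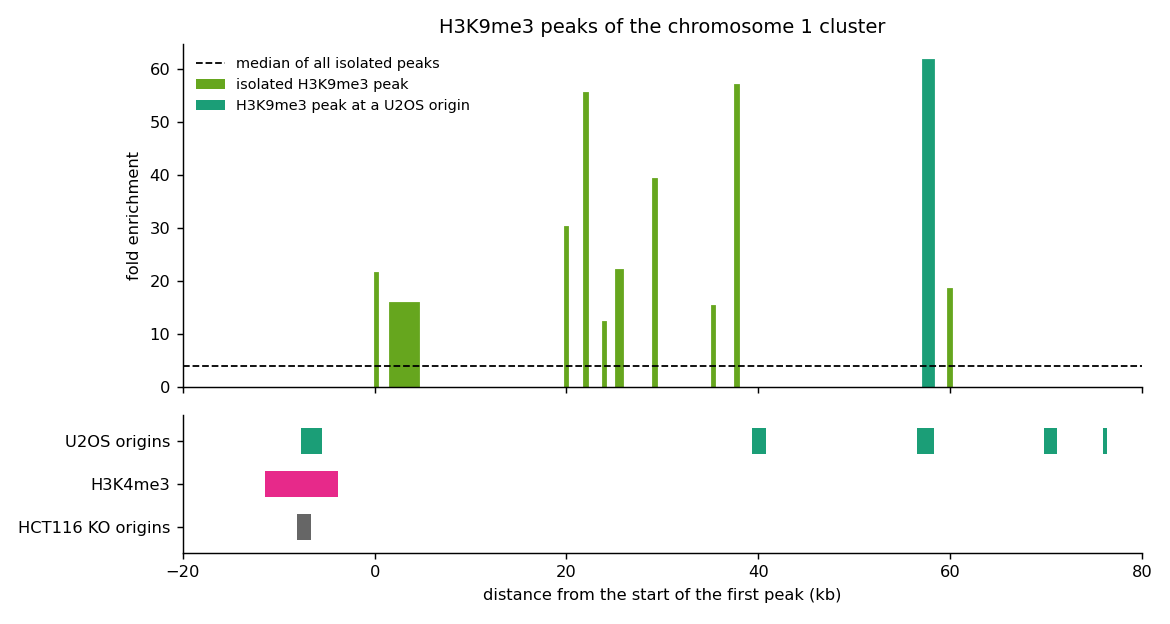
Fold enrichment (y axis, upper panel) of the 11 H3K9me3 peaks of the chromosome 1 cluster against distance from the start of the first peak (x axis, kb), with isolated peaks and the 1 peak at a U2OS origin in different colours and the median of all isolated peaks, 4.01, as a dashed line; the lower panel shows U2OS origins, H3K4me3 peaks and HCT116 KO origins. The 10 isolated peaks stand at folds of 12.4 to 57.1, all above the dashed line. Folds are as called, and whether the peaks coincide with the exons of a gene was not tested.

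Outside the cluster, the highest fold of an isolated peak was 19.2 and the highest −log10 q was 64.4, both at chr12:114157003-114157426. This 424-bp peak lay wholly inside an origin of HCT116 RepID KO cells (chr12:114156201-114159000) and 3774 bp from the nearest U2OS origin, 3602 bp from CUL4A and 3731 bp from H3K4me3. It was the only 1 of the 6 isolated peaks with the highest −log10 q that met any HCT116 list.

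The widest isolated peaks were of ordinary or low enrichment, except in the cluster. The widest, chr9:32685123-32688315, was 3193 bp long with a fold of 4.05. The second was the 3016-bp peak of the cluster, chr1:212217887-212220902, with a fold of 15.9. The third, chr16:46385941-46388789, was 2849 bp long with a fold of only 1.60, and a SKP2 peak of WT cells with a score of 2775 lay inside it. The fourth, chr4:13756165-13758836, was 2672 bp long with a fold of 4.22.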

How the data were processed

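Peak lists deposited by the authors were used as they stand, on build hg19 according to the submitters' processing notes, which name MACS and SICER without versions. For H3K9me3 the deposited file gives for each peak a fold ratio over control, a −log10 p and a −log10 q. It has the layout of MACS2 broad peaks, whereas the methods of the study name SICER for histone marks. For H3K4me3 the deposited values are also −log10 q. The authors called origins and CUL4A with SICER on a grid of 200 bp, and CDT2 and SKP2 with MACS2 broad peaks. For these lists the deposited value is a score, compared only within a list. Lists hold no read counts, so depth is unknown.

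A peak met a list when it shared at least 1 base with a region of it. Intervals are 95% Wilson intervals and treat peaks as independent, which neighbouring peaks are not. Named sites were the 6 isolated peaks of highest −log10 q, the 4 widest, the 4 of highest fold at SKP2 in both HCT116 lists, the 3 windows of 1 Mb with most isolated peaks and the 3 longest runs. The cluster and the remote peaks were added after their values were seen. The members, classes and lists were chosen with earlier results of these data known. Overlap and distance code was tested on simulated regions. Python 3.11.15, NumPy 2.4.6, pandas 2.3.3, SciPy 1.17.1 and matplotlib 3.10.9 were used. The planned gene annotation and sequence content of the peaks were not analysed here, since the reference tables at hand are of another build. Alternatives changed the overlap that excludes a peak, the strength of H3K9me3 peaks entered, the chromosomes, the lists used and the merging of near peaks.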

Additional observations from a re-analysis of the deposited data

Results flagged for a closer look

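Chromosome X lies outside the rule and entered no comparison above. Under the same criteria, 920 of its 1420 H3K9me3 peaks were isolated (64.8%, 62.3 to 67.2%), a share like that of chromosome 13 (64.5%). Their median width was 285 bp and their median fold 4.09. SKP2 peaks met 12 of them in HCT116 WT cells (1.3%, 0.748 to 2.27%) and 13 in RepID KO cells (1.41%, 0.828 to 2.4%), and KO origins met 25 (2.72%, 1.85 to 3.98%). It is given here because it is signal in data that the comparisons did not use, and there is no control sample to set it against.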

How the results depend on the processing

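No paired analysis was possible because each condition has 1 sample and no value comes from a test. Of 51 values recomputed under 7 other settings and 2 chosen after seeing the data, 30 stayed within their main interval or, for counts, within 1.5 times, and 21 moved. Where a gap of up to 1 kb also excluded a peak, the isolated share was 36.8% and its share at KO origins 5.77%; where 50% of a peak had to be covered, they were 41.1% and 6.79%. With a −log10 q of at least 2, 12907 peaks were isolated (34.4%), with a median fold of 4.46 and 1.9% at SKP2 of KO cells. In the 50% of peaks with the higher fold, 10892 were isolated (38.8%), with a median fold of 4.58, 1% at SKP2 of WT cells and 5.9% at KO origins. The share was 40.1% with chromosome X added and 40.1% without the H3K4me3 list, then with 6.67% at KO origins. Merging near peaks moved none of the values. Of the 2 settings chosen after seeing the data, excluding within 10 kb left 8556 peaks (15.2%) with a median fold of 4.06 and 3.58% at KO origins, and 1 kb around each centre gave 7% at KO origins. Read depth, and so the regions missed in each list, is unknown.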

Other observations

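Weakly enriched isolated peaks, a group defined after the values were seen, met the HCT116 lists more often than the rest. The 169 isolated peaks with a fold under 2.5 (0.762%) came from 21 of the 22 chromosomes. SKP2 of WT cells met 40 of them (23.7%, 17.9 to 30.6%) and SKP2 of RepID KO cells 32 (18.9%, 13.7 to 25.5%), against 1.02% and 1.54% of the isolated peaks with a fold of 2.5 or more. KO origins met 48 (28.4%, 22.1 to 35.6%) against 6.16%. Over all autosomal H3K9me3 peaks the 3 shares were 4.3%, 4.55% and 28.3%. The shares over all H3K9me3 peaks with a fold under 2.5 were not computed. It is therefore unknown whether the pattern is particular to isolated peaks. Of the 29 isolated peaks met by SKP2 in both HCT116 lists, 17 were among these 169. Cut into 10 equal parts by their own fold, the isolated peaks of the lowest part (folds of 1.29 to 3.32) met SKP2 at 2.93% in WT and 3.74% in KO cells and KO origins at 10.1%. In the other 9 parts the shares were 0.406% to 1.35%, 1.13% to 1.89% and 5.32% to 6.31%. The −log10 p of these 169 peaks had a median of 4.17, against 4.70 in the others, and their median folds were 2.07 and 4.02.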
